A study of Homo sapiens
Mus musculus with 5 samples.

Results

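The interleukin-6 (IL6) family and the JAK-STAT3 pathway it acts through were followed in tumors that H2030-BrM3 cells formed in athymic nu/nu mice. H2030-BrM3 is a brain-metastatic derivative of a human lung adenocarcinoma line. Both groups carried the same line in the same strain: 3 libraries came from brain tumors and 2 from orthotopic lung tumors, the latter seeded by injection into the trachea. How the brain tumors were seeded is not given in the sources used here, and athymic mice lack a thymus and hence most T cells. RNA sequencing gave RPKM, read counts scaled to gene length and to the library's depth, in 1 table of human genes that stands for the cancer cells and 1 table of mouse genes that stands for the host. The 10 genes were taken by symbol from 25524 human genes: the ligands IL6, IL11 and LIF, the receptor chains IL6ST, LIFR and OSMR, the kinases JAK1 and JAK2, the transcription factor STAT3 and the inhibitor SOCS3. All 10 were found, each under 1 identifier, and all 10 same-symbol genes were found among 24628 mouse genes.

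Cytokines of this family bind a private receptor chain and share the signal-transducing chain gp130, which IL6ST encodes. IL6 and IL11 bind their own alpha chains and bring gp130 molecules together, LIF joins gp130 to the LIF receptor, and oncostatin M joins gp130 to the oncostatin M receptor that OSMR encodes. The receptors carry Janus kinases such as JAK1 and JAK2, which phosphorylate STAT3, and STAT3 then enters the nucleus and induces its targets. One target is SOCS3, which binds gp130 and the kinases and shuts the signal off, so that its RNA is often used as a readout of recent signalling. In the brain, astrocytes answer these cytokines and in the liver and lung they drive acute phase proteins.

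Whole reads were recovered from the RPKM. The libraries held 2500199 to 8638525 human reads and 237252 to 8822132 mouse reads, lowest for mouse in lung tumor 1. Human reads made up 75.7%, 56.7% and 22.1% of both species in brain tumors 1, 2 and 3, against 96.6% and 41.5% in lung tumors 1 and 2. Whether each library is a separate animal is not stated in the labels, and the p-values below speak only of the spread among these samples, which may be technical. In such bulk tissue, fewer cells of a type and less RNA per cell cannot be told apart. The cancer cell label was checked by the epithelial genes of the human table: KRT8 stood at 428, 459 and 1343 against 906 and 831 RPKM, KRT18 at 237, 210.5 and 604 against 341 and 469 RPKM and EPCAM at 116, 29.7 and 73.9 against 144 and 81.2 RPKM, whereas KRT19 was at or under 0.458 RPKM in each library. Markers of other cell types were also read in the human table. Summed over 5 genes, the leukocyte list was at 133 to 489 RPKM in the brain tumors against 428 to 615 RPKM in the lung tumors, nearly all from S100A9 and S100A8. The fibroblast list was at 128 to 224 RPKM in the brain tumors against 64.2 to 509.7 RPKM in the lung tumors, mostly from COL1A1, and the microglia list was at 19.8 to 49.8 RPKM in the brain tumors against 16.8 to 42.8 RPKM in the lung tumors, mostly from SALL1. The oligodendrocyte list was at 121 to 178 RPKM in the brain tumors against 78.4 to 234 RPKM in the lung tumors, with 1 of its genes above the filter. In the leukocyte list PTPRC was at 0 in 4 of 5 libraries and at 0.119 RPKM in brain tumor 1. In the microglia list TMEM119 was at 0 in 4 of 5 and at 0.267 RPKM in brain tumor 2. The part of these marker levels in the human results was not tested.

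In the cancer cells the 3 ligand genes had lower mean values in the brain tumors, the receptor genes higher ones, and 0 of the 10 genes passed the test. The test was limma on log2(RPKM + 1) with Benjamini-Hochberg adjustment over 14423 human genes and a threshold of 0.05. It called 0.00693% of all tested human genes, 1 gene, and at an unadjusted p under 0.05 it held 2 of the 10 (IL6 and IL6ST) against 10.5% of all. Limma's voom on the recovered reads also called 0 of the 10, and 0 of all tested human genes. Every brain tumor lay below both lung tumors for IL6 and IL11, where 12.3% of all tested genes did so, and above both for IL6ST and LIFR, where 17.4% did so. The groups thus did not overlap for 4 of the 10 genes and for 29.7% of all tested genes. The median log2 fold change, brain minus lung on the log2(RPKM + 1) scale, was 0.23 over the 10 genes and 0.0926 over all tested human genes.

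IL6, the family's founding cytokine and a driver of acute phase responses (ENSG00000136244.11; chromosome 7 from 22727200 to 22731998 in GRCh38), had 4.09, 6.97 and 1.57 RPKM in brain tumors 1, 2 and 3, against 7.63 and 50.4 RPKM in lung tumors 1 and 2. Lung tumor 2 stood far above the other 4 libraries, while lung tumor 1 was close to brain tumor 2. These levels rested on 27, 35 and 3 reads from the brain tumors against 39 and 148 from the lung tumors. From counting alone the exact 95% Poisson intervals were 4.85 to 9.69 RPKM in brain tumor 2 and 5.42 to 10.4 RPKM in lung tumor 1, which overlap widely, and 42.6 to 59.2 RPKM in lung tumor 2. The difference did not pass the test (log2 fold change -2.16, SE 0.79, limma adjusted p = 0.469). It was -3.45 without lung tumor 1 and -0.88 without lung tumor 2.

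LIF encodes leukemia inhibitory factor, which acts on neural and epithelial cells through LIFR and gp130 (chromosome 22 from 30240453 to 30246759). Its values were 8.32, 10.8 and 2.46 RPKM in brain tumors 1, 2 and 3, against 6.89 and 31.3 RPKM in lung tumors 1 and 2, on 164, 162 and 14 reads from the brain tumors against 105 and 274 from the lung tumors. Lung tumor 2 was again the highest and brain tumor 3 the lowest, and lung tumor 1 lay within the range of the brain tumors. The difference did not pass (log2 fold change -1.14, SE 0.73, limma adjusted p = 0.556), and it shrank to -0.12 without lung tumor 2 and was -2.16 without lung tumor 1. IL11, a cytokine of stromal and epithelial repair, was low throughout, with 1.35, 1.503 and 1.44 RPKM in brain tumors 1, 2 and 3, against 2.28 and 4.21 RPKM in lung tumors 1 and 2. Both lung tumors were above all brain tumors, but the counts were 13, 11 and 4 reads from the brain tumors against 17 and 18 from the lung tumors, and the exact interval of brain tumor 2 (0.7502 to 2.69 RPKM) overlapped those of lung tumor 1 (1.33 to 3.65) and lung tumor 2 (2.49 to 6.65). IL11 did not pass either (log2 fold change -0.77, SE 0.43, limma adjusted p = 0.524).

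**Figure D1:**
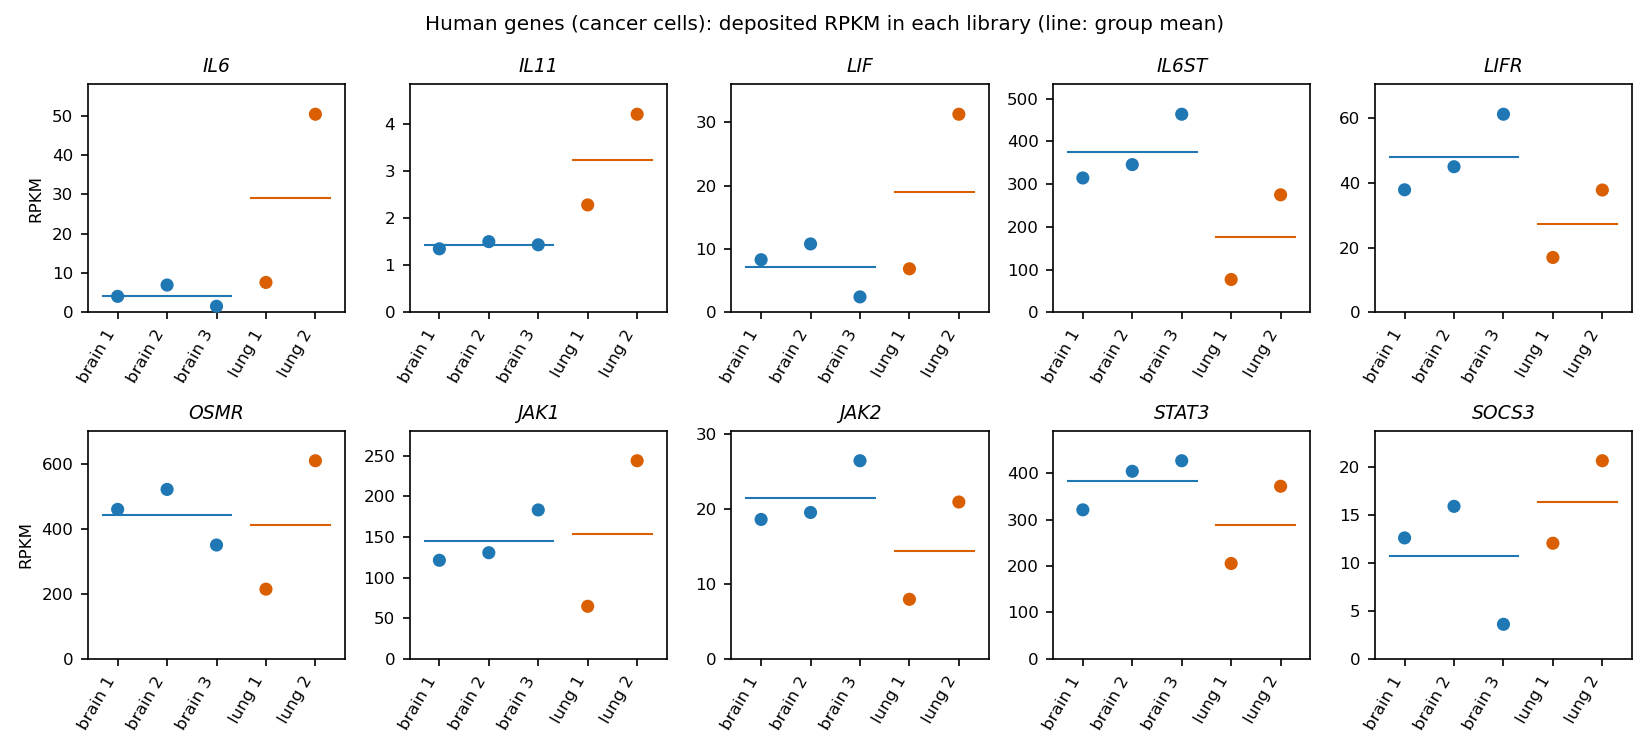
RPKM of the 10 human genes (y axes, from 0) in each library (x axis; blue brain tumors, orange lung tumors), with the group mean as a line. IL6 and LIF peaked in lung tumor 2, at 50.4 and 31.3 RPKM, and the receptor, kinase and STAT3 genes were lowest in lung tumor 1.

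IL6ST, the gene of the shared signal chain gp130 (chromosome 5 from 55935095 to 55994963), had 314, 346 and 463 RPKM in brain tumors 1, 2 and 3, against 77.01 and 275 RPKM in lung tumors 1 and 2. All brain tumors were above both lung tumors, but the gap between the lung tumors was wider than that between lung tumor 2 and brain tumor 1. With 1662, 1389 and 709 reads from the brain tumors against 315 and 646 from the lung tumors, counting error was small beside these differences. The group means were 374 ± 78.6 against 176 ± 140.0 RPKM (mean ± SD, n = 3 and n = 2), and the difference did not pass (log2 fold change 1.34, SE 0.52, limma adjusted p = 0.471). LIFR, which pairs with gp130 to bind LIF (chromosome 5 from 38474668 to 38608403), had 37.9, 45.1 and 61.3 RPKM in brain tumors 1, 2 and 3, against 17.0 and 37.9 RPKM in lung tumors 1 and 2. Lung tumor 2 equalled brain tumor 1 at this rounding and was lower by less than 0.1 RPKM, and lung tumor 1 was well below the rest. It did not pass (log2 fold change 0.86, SE 0.43, limma adjusted p = 0.493).

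OSMR, which pairs with gp130 to bind oncostatin M (chromosome 5 from 38846012 to 38945579), had 461, 523 and 351 RPKM in brain tumors 1, 2 and 3, against 215 and 611 RPKM in lung tumors 1 and 2. Its groups overlapped fully: lung tumor 2 was the highest of the 5 libraries and lung tumor 1 the lowest (log2 fold change 0.27, SE 0.47, adjusted p = 0.835 by limma). The receptor values thus depended on which lung tumor was set against the brain tumors. Without lung tumor 2 the log2 fold changes were 2.25 for IL6ST, 1.42 for LIFR and 1.03 for OSMR, and IL6ST (adjusted p = 0.0159) and LIFR (adjusted p = 0.0462) passed limma's test, in a fit that assumes the lone lung tumor to vary like the brain tumors and in which 10.1% of all tested genes were called higher and 5.52% lower. Without lung tumor 1 they were 0.42, 0.31 and -0.48, none of which passed. With a trend of the log2 values on gene length taken out of each library, the log2 fold changes of IL6ST, LIFR and OSMR were 1.25, 1.01 and 0.25 and did not pass.

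JAK1, the kinase on which gp130 signalling mainly relies (chromosome 1 from 64833229 to 65067746), had 121, 131 and 183 RPKM in brain tumors 1, 2 and 3, against 64.7 and 244 RPKM in lung tumors 1 and 2. The lung tumors were the 2 extremes of the 5 libraries (log2 fold change 0.18, SE 0.53, limma adjusted p = 0.913), and the sign of the difference turned from 0.18 to -0.77 without lung tumor 1. JAK2, a partner kinase also used by hormone and growth factor receptors (chromosome 9 from 4984390 to 5129948), had 18.6, 19.5 and 26.4 RPKM in brain tumors 1, 2 and 3, against 7.94 and 20.9 RPKM in lung tumors 1 and 2. Lung tumor 2 lay among the brain tumors and lung tumor 1 below them (log2 fold change 0.67, SE 0.47, limma adjusted p = 0.579). The JAK2 log2 fold change was 0.0221 without lung tumor 1 and 1.31 without lung tumor 2. STAT3, the transcription factor of the pathway (chromosome 17 from 42313324 to 42388442), was well covered, with 3202, 3064 and 1232 reads from the brain tumors against 1586 and 1648 from the lung tumors. Its values were 321, 404 and 427 RPKM in brain tumors 1, 2 and 3, against 206 and 372 RPKM in lung tumors 1 and 2. Again lung tumor 1 was the lowest and lung tumor 2 within the range of the brain tumors (log2 fold change 0.46, SE 0.37, limma adjusted p = 0.626), and without lung tumor 1 the log2 fold change of STAT3 was 0.0356.

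SOCS3, the feedback inhibitor that STAT3 induces (chromosome 17 from 78356778 to 78360925), had 12.6, 15.9 and 3.62 RPKM in brain tumors 1, 2 and 3, against 12.1 and 20.7 RPKM in lung tumors 1 and 2. Brain tumor 3 was the lowest, on 14 reads, lung tumor 2 the highest, and lung tumor 1 lay close to brain tumor 1. The groups overlapped and the difference did not pass (log2 fold change -0.72, SE 0.61, limma adjusted p = 0.639). Within the brain tumors, IL6, LIF and SOCS3 had the same order, lowest in brain tumor 3 and highest in brain tumor 2, whereas IL6ST, LIFR, JAK1, JAK2 and STAT3 were all highest in brain tumor 3. Brain tumor 3 was also the library with the lowest share of human reads, and the part of that share in these orders was not tested.

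Over the 5 libraries the genes differed in pattern. As a measure of likeness, log2(RPKM + 1) was centred on the mean of the libraries and the root mean square distance between genes was taken, in log2 units. The closest pairs were LIFR and JAK2 (0.13), JAK2 and STAT3 (0.21) and LIFR and STAT3 (0.24). LIF was closest to SOCS3 (0.46) and then to IL6 (0.55), and the pair farthest apart was IL6 and IL6ST (1.86), the cytokine and the signal chain it uses. The distance takes in the size of a gene's changes as well as their direction, and adding 1 to the RPKM flattens a low gene such as IL11. By distance IL11 was closer to OSMR (0.60) and STAT3 (0.62) than to LIF (0.76) or IL6 (1.05), which does not rank likeness in shape. In direction IL11 went with IL6, since both lung tumors lay above every brain tumor for these genes but not for OSMR or STAT3. Among 10401 human genes with a mean of at least 5 RPKM, which leaves out IL11, those most like IL6 were GFPT2, SIRPB1 and DKK1 (0.24, 0.39 and 0.43), and those most like LIF were HMHA1, PAX8-AS1 and NABP1 (0.19, 0.20 and 0.24). For SOCS3 they were MITD1, PIP4K2A and MUS81 (0.10, 0.11 and 0.15). IL6ST had much closer company in SETD2, GPATCH8 and CPD (0.0292, 0.0498 and 0.0701), as did LIFR in PPM1D, TMTC1 and OXR1 (0.0289, 0.0506 and 0.0521). For OSMR they were EPHB2, SH2D4A and SKAP2 (0.0323, 0.0501 and 0.0569). The nearest to JAK1 were SKIL, SLC22A15 and RBM39 (0.0750, 0.0827 and 0.0908) and to JAK2 SREK1, CEP44 and DDAH1 (0.0376, 0.0436 and 0.0486). STAT3 was followed most closely by YME1L1, HDAC6 and DDX42 (0.0383, 0.0443 and 0.0463). These distances describe 5 libraries and carry no test.

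In the host, Socs3 fell in the brain tumors and was the 1 gene of the 9 tested that passed, where limma called 22.4% of all tested mouse genes. Il6 did not reach an RPKM of 1 in at least 2 libraries and was not tested. Limma called 8.12% of 15431 tested mouse genes lower and 14.3% higher in the brain tumors. Every brain tumor lay below both lung tumors for 5 of the 9 (Il11, Osmr, Jak1, Jak2 and Socs3), against 26.2% of all tested mouse genes, and above both for 0 of the 9, against 30%. Counting both directions, 56.1% of all tested mouse genes had groups apart. At an unadjusted p under 0.05, Osmr and Socs3 passed, against 38.5% of all. The comparison sets host brain against host lung, so that the organ and the growth of a tumor in it cannot be told apart.

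Socs3, the host gene of the feedback inhibitor (ENSMUSG00000053113.3), had 66.2, 60.1 and 93.0 RPKM in brain tumors 1, 2 and 3, against 301 and 245 RPKM in lung tumors 1 and 2. Both lung tumors were far above every brain tumor, and the groups did not overlap. The means were 73.1 ± 17.5 against 273 ± 39.7 RPKM (mean ± SD, n = 3 and n = 2; log2 fold change -1.90, SE 0.32, limma adjusted p = 0.0117). The values rested on 90, 148 and 402 reads from the brain tumors against 35 and 649 from the lung tumors. The log2 fold change was -1.76 without lung tumor 1, the library with few mouse reads, and -2.05 without lung tumor 2. The call was lost by limma without brain tumor 1 (adjusted p = 0.0618) or without brain tumor 2 (adjusted p = 0.0741), with log2 fold changes of -1.85 and -1.78.

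Host ligand RNA was scarce. Il6 was listed at 0 in brain tumors 1 and 3 and in lung tumor 1, at 0.189 RPKM (1 read) in brain tumor 2 and at 3.87 RPKM (22 reads) in lung tumor 2. A count of 0 allows up to 3 reads, which is 1.03 RPKM in brain tumor 1 and 0.323 RPKM in brain tumor 3 but 12.02 RPKM in lung tumor 1, more than lung tumor 2 had. A level like that of lung tumor 2 was therefore not detectable in lung tumor 1. Lif had 0.569, 0.734 and 2.54 RPKM in brain tumors 1, 2 and 3, against 0 and 2.14 RPKM in lung tumors 1 and 2, with 85 reads in brain tumor 3 and 0 in lung tumor 1, where 3 reads would be 3.33 RPKM. Its groups overlapped (log2 fold change 0.26, SE 0.66, limma adjusted p = 0.798), and brain tumor 3 had the highest host and the lowest cancer cell value of this gene among the brain tumors. Il11 had 0.245, 0.542 and 0.540 RPKM in brain tumors 1, 2 and 3, against 2.87 and 1.13 RPKM in lung tumors 1 and 2, on 1, 4 and 7 reads from the brain tumors against 1 and 9 from the lung tumors (log2 fold change -1.001, SE 0.43, limma adjusted p = 0.144).

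Among the host receptors, Osmr had 25.3, 27.8 and 18.7 RPKM in brain tumors 1, 2 and 3, against 42.4 and 45.2 RPKM in lung tumors 1 and 2, and both lung tumors lay above every brain tumor. The difference did not pass (log2 fold change -0.86, SE 0.32, limma adjusted p = 0.107), and passed in 1 of the 13 alternatives, with the length trend taken out, at -1.29 (limma adjusted p = 0.0470). Il6st, for the shared chain, had 112, 88.1 and 65.4 RPKM in brain tumors 1, 2 and 3, against 72.8 and 183 RPKM in lung tumors 1 and 2, and Lifr had 28.6, 24.7 and 20.6 RPKM in brain tumors 1, 2 and 3, against 9.16 and 38.5 RPKM in lung tumors 1 and 2. For both, the lung tumors spanned nearly the whole range, with lung tumor 2 the highest (log2 fold change -0.42, limma adjusted p = 0.562 for Il6st and log2 fold change 0.35, adjusted p = 0.710 for Lifr). For Lifr the sign depended on the lung tumor, with -0.63 without lung tumor 1 and 1.33 without lung tumor 2 (limma adjusted p = 0.0152, where 35% of all tested genes were called higher). Lung tumor 1 had 9 Lifr reads.

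The host kinases differed by small amounts. Jak1 had 319, 329 and 349 RPKM in brain tumors 1, 2 and 3, against 375 and 492 RPKM in lung tumors 1 and 2 (log2 fold change -0.37, SE 0.30, limma adjusted p = 0.408), and Jak2 had 12.7, 15.8 and 13.5 RPKM in brain tumors 1, 2 and 3, against 21.1 and 23.5 RPKM in lung tumors 1 and 2 (log2 fold change -0.64, SE 0.32, limma adjusted p = 0.204). Both lung tumors were above all brain tumors for each kinase. Stat3 had 297, 265 and 237 RPKM in brain tumors 1, 2 and 3, against 253 and 430.0 RPKM in lung tumors 1 and 2, so that lung tumor 1 was within the range of the brain tumors (log2 fold change -0.31, SE 0.35, limma adjusted p = 0.549). The host genes that encode the kinases and Stat3 did not pass, beside a Socs3 difference that did.

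**Figure D2:**
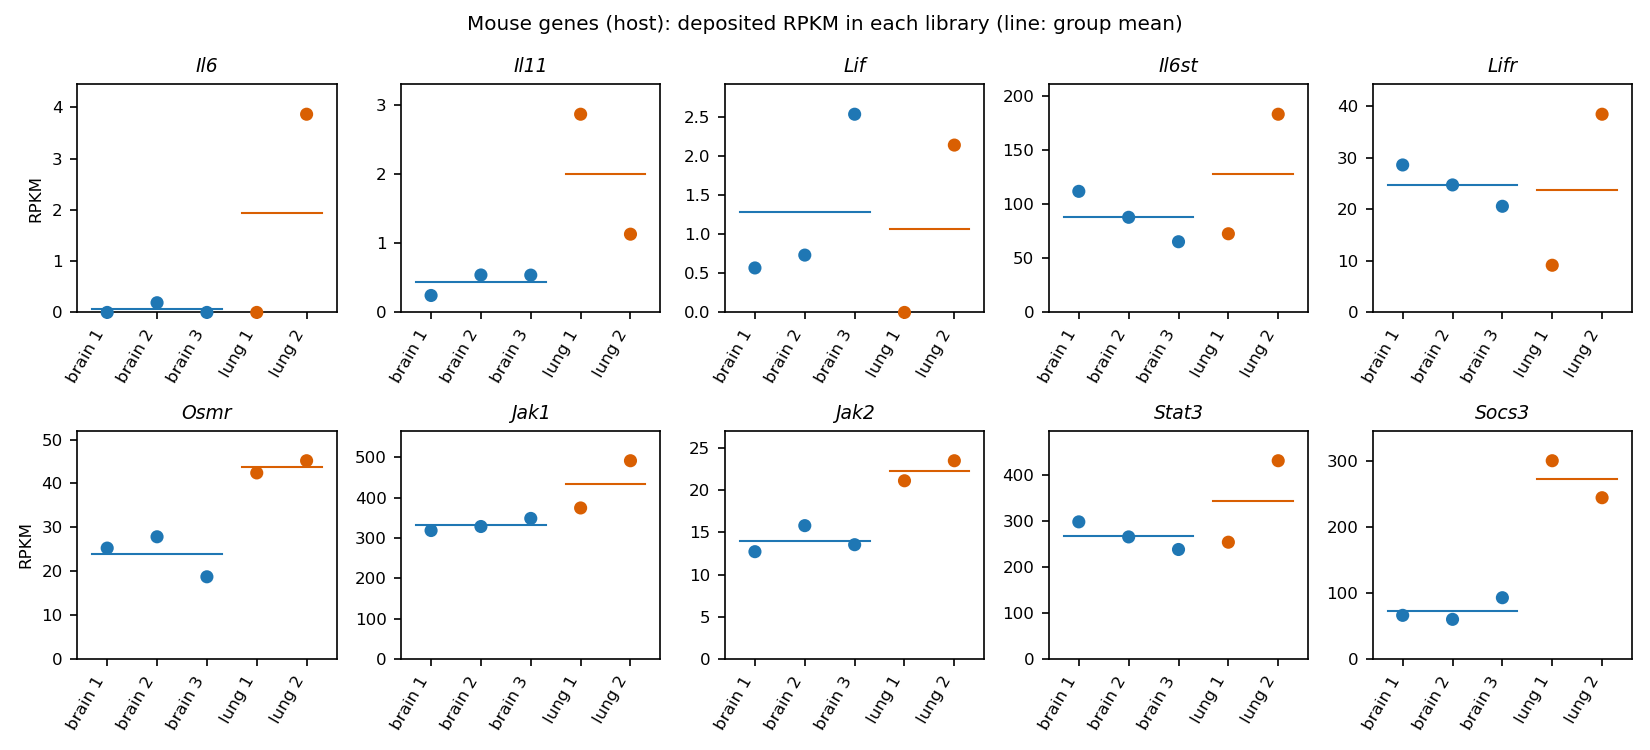
RPKM of the 10 same-symbol mouse genes (y axes, from 0) in each library (x axis; blue brain tumors, orange lung tumors), with the group mean as a line. Socs3 was at 60.1 to 93.0 RPKM in the brain tumors and 245 to 301 in the lung tumors, while Lif and Il6 were at or under 3.87 RPKM in each library.

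Set side by side, the brain minus lung log2 fold changes had unlike signs in cancer cells and host for LIF, IL6ST, OSMR, JAK1, JAK2 and STAT3, and like signs for IL11, LIFR and SOCS3. For IL6ST they were 1.34 in human and -0.42 in mouse, and for JAK2 0.67 and -0.64. SOCS3 had a negative value in both, -0.72 and -1.90, and passed in the host. None of the other values passed. The signs of OSMR, JAK1, Lif, Il6st, Lifr and Stat3 turned when a lung tumor was left out. For these genes the pairing of signs thus depended on which lung tumor was used. The difference between the species was not tested, since the 2 tables were scaled separately.

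**Figure D3:**
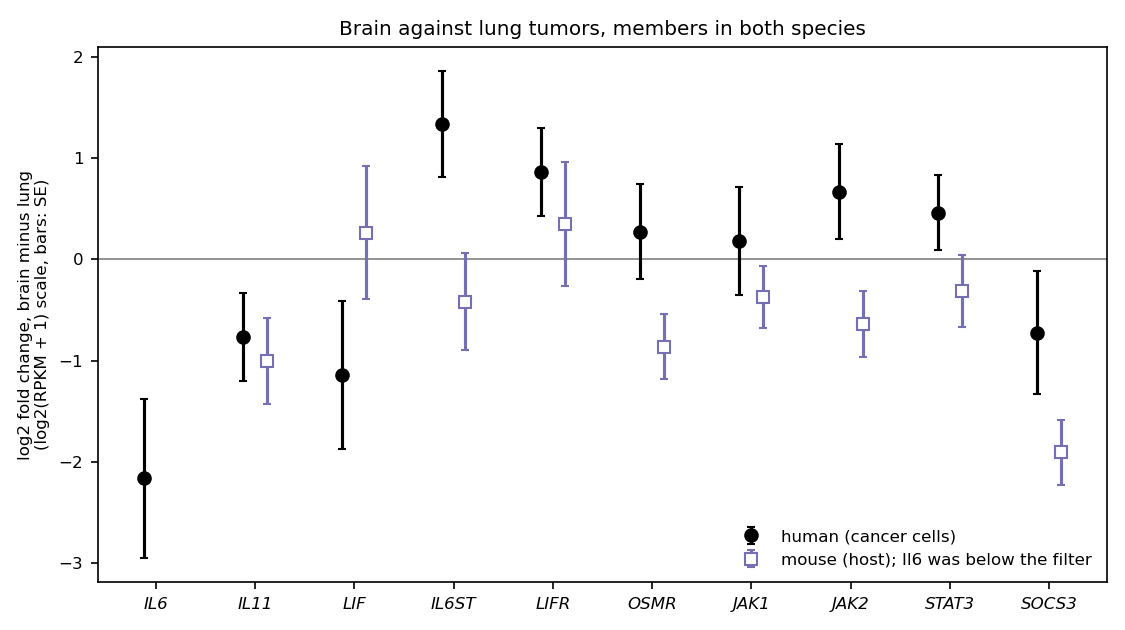
Log2 fold change, brain minus lung, on the log2(RPKM + 1) scale (y axis) for each gene (x axis) in human (filled circles) and mouse (open squares); bars are the limma standard error. Host Socs3, at -1.90, is the 1 value past the threshold, and host Il6 was not tested.

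Because every library held cancer cells and host tissue, the reads of each gene could be split by species. The share of human reads among the reads of a human gene and its mouse counterpart was set beside the share over all genes of the library, given above. The intervals are exact 95% binomial ones and cover counting error only, and how reads were assigned to a species is not given in the sources used here. A longer gene model collects more reads, so the share was also taken on reads per base of the gene lengths that the RPKM imply. These lengths can fall short of the sequence that collected the reads, as may human LIFR, at 378.5 bases against 4143 in mouse. A length too short in one species raises that species' per base share, so a per base share is no firmer than a share of reads. Per base, a gene lies above the library's share when its human RPKM exceeds its mouse RPKM. For IL6 the human share was 100%, 97.2% and 100% in brain tumors 1, 2 and 3, against 100% and 87.1% in lung tumors 1 and 2, from 27, 35, 3, 39 and 148 human reads against 0, 1, 0, 0 and 22 mouse reads. Nearly all IL6 RNA in these tumors was thus read as human, above the share over all genes in 4 of 5 libraries and within the interval in lung tumor 1. Per base it was above that share in 5 of 5. LIF was mostly human in brain tumors 1 and 2, at 96.5% (92.5 to 98.7%) and 92.0% (87.0 to 95.6%), and in lung tumor 2, at 86.2% (81.9 to 89.8%). In brain tumor 3 it was mostly from the host, at 14.1% (7.95 to 22.6%) human, an interval that includes the 22.1% of all genes. In lung tumor 1 all 105 LIF reads were human, an interval that includes the library's share. IL11 had too few reads for a narrow share, and lay above the share of all genes in lung tumor 2, at 66.7% (46.0 to 83.5%), and within the interval in the other 4 libraries.

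For the receptors the answer depended on gene length. OSMR reads were 93.4%, 85.9% and 56.9% in brain tumors 1, 2 and 3, against 97.3% and 70.5% in lung tumors 1 and 2 human, above the share over all genes in 4 of 5 libraries. Per base they were above it in 5 of 5, with a mouse length 4.02 times the human one. LIFR reads were 27.4%, 17.9% and 7.15% in brain tumors 1, 2 and 3, against 82.7% and 5.998% in lung tumors 1 and 2 human, below that share in all 5, but the mouse gene length was 10.9 times the human one. Per base the LIFR shares were 80.5%, 70.4% and 45.7% in the brain tumors against 98.1% and 41.1% in the lung tumors, above the library's share in 4 of 5 libraries. IL6ST reads were 65.8%, 53.1% and 30.7% in brain tumors 1, 2 and 3, against 86.8% and 19.0% in lung tumors 1 and 2 human, below the share in 4 libraries and above it in brain tumor 3. With a mouse length 4.54 times the human one, the IL6ST shares per base were 89.7%, 83.7% and 66.7% in the brain tumors against 96.8% and 51.5% in the lung tumors, above the library's share in 5 of 5. Which species leads for LIFR and IL6ST therefore rests on the gene lengths.

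JAK1, with gene lengths alike in both species (ratio 0.943), was below the share over all genes in all 5 libraries by both measures, for example 35.5% (33.2 to 37.9%) of reads and 34.2% per base in brain tumor 2, where 56.7% of all reads were human. JAK2 reads were 41.3%, 20% and 7.88% in brain tumors 1, 2 and 3, against 62.1% and 8.91% in lung tumors 1 and 2 human, below the share in all 5. With a mouse length 6.45 times the human one, its shares per base were 82.0%, 61.7% and 35.6% in the brain tumors against 91.4% and 38.7% in the lung tumors, above the library's share in the 3 brain tumors and below it in the 2 lung tumors. STAT3 reads were 83.8%, 75.5% and 44.0% in brain tumors 1, 2 and 3, against 97.2% and 48.6% in lung tumors 1 and 2 human, above the share in 4 of 5. Per base it was above the share in the 3 brain tumors and below it in the 2 lung tumors, with a mouse length 0.649 times the human one.

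SOCS3 reads were 65.3%, 52.3% and 3.37% in brain tumors 1, 2 and 3, against 78.1% and 15.9% in lung tumors 1 and 2 human, below the share over all genes in 4 libraries and within the interval in brain tumor 2. The mouse SOCS3 length was 0.317 times the human one, and per base the shares were 37.3%, 25.7% and 1.09% in the brain tumors against 53.1% and 5.66% in the lung tumors, below the library's share in 5 of 5. The recovered reads are the smallest whole numbers that the RPKM allow, so a share is off where a gene's true counts in all libraries have a common divisor. The shares are a description with no test.

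**Figure D4:**
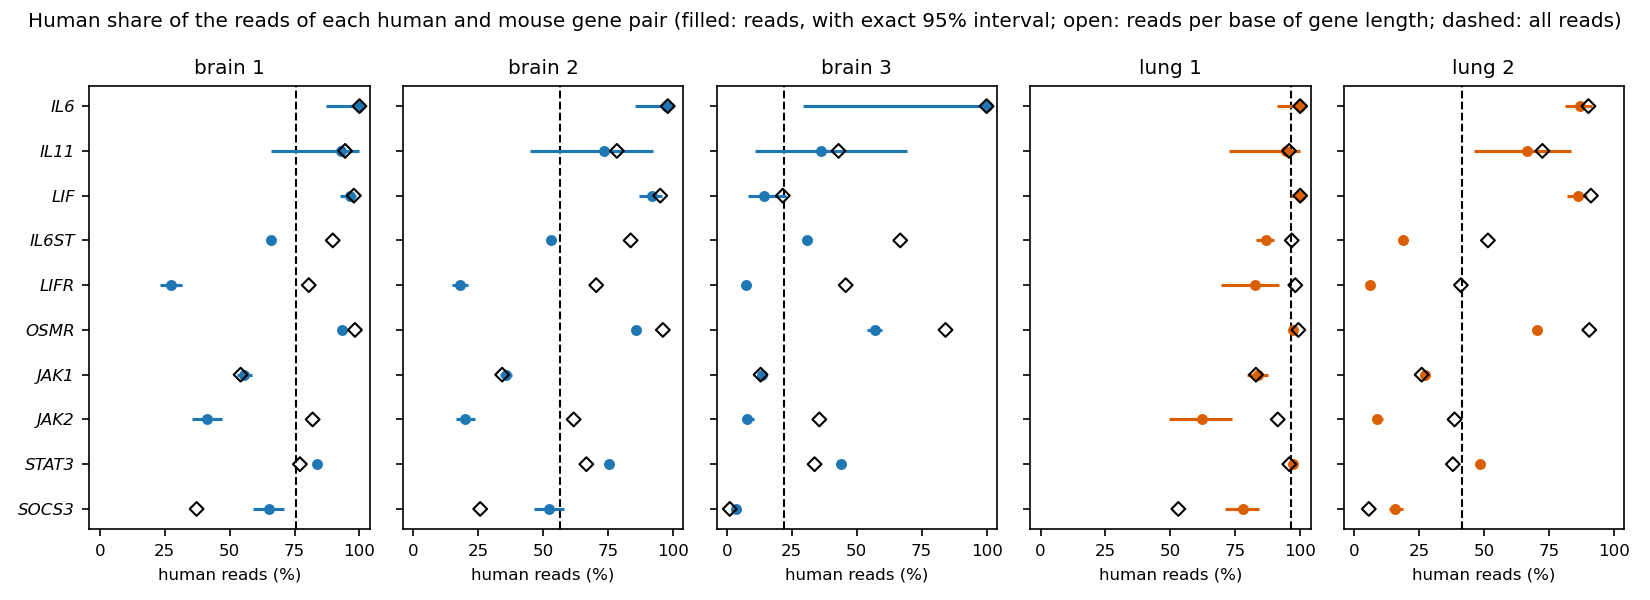
Human share (x axis, percent) of the reads of each human gene and its mouse counterpart (y axis), 1 panel per library; filled points are shares of reads with exact 95% binomial intervals as bars, open diamonds are shares of reads per base of gene length, and the dashed line is the human share over all genes. The IL6 reads lie at 87.1% to 100%, JAK1 lies left of the dashed line in each panel by both measures, and for LIFR and IL6ST the filled and open points fall on different sides of the line in 4 libraries each.

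The rest of the pathway was followed in lists of other ligands, receptor chains, kinases and STAT factors, inhibitors, STAT3 response genes, and NF-kB, IL1 and TNF genes that induce IL6. In the cancer cells 0 members of these 7 lists passed limma, and 0 passed with voom. Over all 14423 tested human genes limma called 1 and voom 0, so these counts say little about the lists. Without lung tumor 2, where 10.1% of all tested genes were called higher and 5.52% lower, TYK2, STAT2, PIAS1, PTPN11, HIF1A, HP, NFKB1 and REL were among those called higher and JUNB and NNMT among those called lower. Of the other ligands, CLCF1, a cytokine that signals through gp130 and LIFR, had 5.93, 9.53 and 5.98 against 9.15 and 27.1 RPKM in brain against lung tumors. OSM, which encodes oncostatin M, was at or under 0.400 RPKM in the cancer cells. Among other receptors (3 of 5 tested, median -0.44, and 0.17 without lung tumor 1), IL6R, the alpha chain that binds IL6, had 22.1, 14.1 and 1.09 against 14.1 and 43.3 RPKM (log2 fold change -1.52, limma adjusted p = 0.555). Its lowest value was again in brain tumor 3. IL27RA, the IL27 receptor chain, had 20.1, 29.9 and 13.8 against 19.5 and 15.5 RPKM.

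Other kinases and STAT factors had a median of 0.40 (5 of 8 tested), which turned to -0.43 without lung tumor 1 and was 1.09 without lung tumor 2. The kinase TYK2 was at 129.6, 157 and 172 against 71.0 and 175 RPKM and STAT6, which answers IL4, at 183, 217 and 137 against 121 and 237 RPKM. Inhibitors had a median of 0.48 (15 of 18 tested), and 3 of them, PIAS1, PIAS2 and PIAS3, lay above both lung tumors in every brain tumor, against 17.4% of all tested genes. PIAS3, which blocks DNA binding by STAT3, was at 79.8, 114 and 106 against 45.1 and 50.8 RPKM (log2 fold change 1.03, limma adjusted p = 0.454). PTPN11, the phosphatase SHP2 recruited by gp130, had 140.4, 140.5 and 183 against 39.9 and 183 RPKM, and SOCS1, a close relative of SOCS3, 2.55, 2.61 and 0.327 against 2.20 and 2.98 RPKM.

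STAT3 response genes of signalling and growth had a median of -0.40 in the cancer cells, where all human genes had 0.0926, and all 20 were tested. Every brain tumor was below both lung tumors for 4 of the 20, against 12.3% of all tested genes: the AP-1 genes FOSL1, JUNB and FOS and CEBPB, a transcription factor also known as NF-IL6. FOSL1 had 12.7, 12.7 and 26.0 against 37.3 and 69.9 RPKM (log2 fold change -1.60, limma adjusted p = 0.433). TIMP1, a protease inhibitor, had 2974, 1277 and 675 against 3589 and 2049 RPKM, and the cyclin gene CCND1 395, 341 and 298 against 332 and 632 RPKM. HIF1A, the oxygen-sensitive factor, had 275, 285 and 422 against 66.2 and 307 RPKM. Of 15 acute phase genes 4 were tested (median 0.996, and 1.78 without lung tumor 1): HP, the haptoglobin gene, had 137, 48.3 and 46.4 against 7.02 and 3.59 RPKM (log2 fold change 3.50, limma adjusted p = 0.304). Its reads could be split with the near-identical HPR, which makes its level uncertain. With the replicate block HP was called higher, in a fit that called 114 of all tested human genes. The labels do not pair the libraries. The complement gene C3 had 3.99, 25.4 and 37.9 against 1.80 and 4.04 RPKM and SAA1, serum amyloid A, 0, 0.248 and 2.60 against 3.41 and 1.27 RPKM.

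Genes of NF-kB and the cytokines that induce IL6 had a median of -0.0563 in the cancer cells (8 of 11 tested), and of -0.40 without lung tumor 1 and 0.35 without lung tumor 2. The NF-kB subunit genes differed in sign: RELB had 30.5, 23.2 and 58.6 against 87.5 and 85.9 RPKM (log2 fold change -1.30, limma adjusted p = 0.455), REL 5.26, 4.37 and 8.73 against 0.482 and 3.32 RPKM, NFKB1 139.7, 120.1 and 141 against 37.1 and 119 RPKM and RELA 133, 114 and 146 against 113 and 169 RPKM. IL1B was at or under 0.422 RPKM in each library.

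In the host, STAT3 response genes fell in the brain tumors. Of 20 genes of signalling and growth, 11 fell and 0 rose (median log2 fold change -2.05, against 0.0791 over all tested mouse genes, of which 8.12% were called lower). Every brain tumor lay below both lung tumors for 16 of the 20, against 26.2% of all tested mouse genes. Cebpb had 17.97, 15.6 and 15.1 against 333 and 124 RPKM in brain against lung tumors (log2 fold change -3.57, limma adjusted p = 0.00526). Il4ra, the IL4 receptor chain, had 34.4, 27.98 and 17.4 against 412 and 204 RPKM (log2 fold change -3.45, limma adjusted p = 0.00530), and Nnmt, a methyltransferase, 0.978, 1.35 and 0.769 against 85.8 and 13.0 RPKM (log2 fold change -4.11, limma adjusted p = 0.0179). Timp1 had 43.3, 10.2 and 9.25 against 1302 and 147 RPKM (log2 fold change -4.68, limma adjusted p = 0.0302), and Vegfa, the vessel growth factor, 103, 105 and 73.2 against 430.4 and 1212 RPKM (log2 fold change -2.95, limma adjusted p = 0.0119). Hif1a did not pass, with 91.0, 73.3 and 100.1 against 50.3 and 75.9 RPKM. The number called lower was 12 without lung tumor 1, where 14% of all tested genes were called lower, and 14 without lung tumor 2, where 20% were. It was 3, 2 and 3 without brain tumors 1, 2 and 3, and 7 with no filter on low values. Calls over all mouse genes also varied widely on leaving out a library, so these drops are not read as particular to the list.

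Acute phase genes of the host fell as well, 7 of the 12 tested, while 1 rose (8.12% of all tested mouse genes were called lower and 14.3% higher, median -2.78). Among the 12, called or not, 9 log2 fold changes were negative and 3 positive. The median was -2.48 without lung tumor 1 and -3.06 without lung tumor 2. Saa3, a serum amyloid A made outside the liver, had 6.49, 11.8 and 8.17 against 12174 and 671 RPKM (log2 fold change -8.22, limma adjusted p = 0.00655). Hp had 1.34, 1.04 and 0.675 against 157 and 603 RPKM (log2 fold change -7.27, limma adjusted p = 0.00177), and C3 86.0, 45.8 and 21.4 against 1449 and 3718 RPKM (log2 fold change -5.69, limma adjusted p = 0.00402). A2m, a protease inhibitor, was the 1 gene that rose, with 79.5, 99.8 and 59.3 against 11.4 and 0.358 RPKM (log2 fold change 4.26, limma adjusted p = 0.0250). Without brain tumors 1, 2 or 3 the number called lower was 5, 4 and 3, and A2m was not called. Because calls over all mouse genes also varied widely on leaving out a library, these drops are not read as particular to the list. Genes of NF-kB and its cytokines fell for 4 of 10 tested, against 8.12% of all (median -1.43). Il1b, the interleukin-1 beta gene, had 8.37, 0.867 and 0.494 against 42.8 and 112 RPKM (log2 fold change -4.57, limma adjusted p = 0.0199). The inhibitor gene Nfkbia had 41.6, 45.8 and 57.8 against 149.7 and 134 RPKM (log2 fold change -1.54, limma adjusted p = 0.0166), Relb 5.89, 4.07 and 4.02 against 21.1 and 20.3 RPKM (log2 fold change -1.95, limma adjusted p = 0.0178) and Rela 18.2, 14.2 and 18.8 against 43.5 and 49.6 RPKM (log2 fold change -1.40, limma adjusted p = 0.0275). The number of NF-kB and cytokine genes called lower was 1, 0 and 0 without brain tumors 1, 2 and 3, likewise not read as particular to the list. The list median was -1.72 without lung tumor 1 and -1.36 without lung tumor 2.

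Closer to the receptor, host Cntfr rose in the brain tumors, the alpha chain for ciliary neurotrophic factor that neurons carry, with 142, 109.7 and 148 against 6.13 and 9.68 RPKM (log2 fold change 3.93, limma adjusted p = 0.00176). In lung tumors 1 and 2, Cntfr had 1 and 36 reads. Il11ra1, the alpha chain for IL11, fell, with 10.2, 8.98 and 7.28 against 29.0 and 20.2 RPKM (log2 fold change -1.37, limma adjusted p = 0.0478). They were the 2 called of 4 other receptor genes tested, against 22.4% of all. Cntfr was called in all 13 alternatives, whereas Il11ra1 was called in 3 of them: a filter at 5 RPKM, eBayes without a trend and without lung tumor 2. Of the other ligands (5 tested), 0 passed limma, and Osm was called lower with voom and with eBayes without a trend. At an unadjusted p under 0.05 there were 3, Osm and Clcf1 among them, against 38.5% of all tested mouse genes. Osm, oncostatin M, had 0.710, 0.654 and 0.968 against 2.77 and 3.64 RPKM (log2 fold change -1.24, limma adjusted p = 0.0645). The Osm values rested on 3, 5 and 13 reads from the brain tumors against 1 and 30 from the lung tumors. Ctf1, cardiotrophin, had 7.51, 8.29 and 5.15 against 7.98 and 10.5 RPKM, with 1 read in lung tumor 1. Of 7 other kinases and STAT factors tested (median -0.90), Stat6 alone fell, where 8.12% of all tested mouse genes did. Stat6 had 67.1, 45.9 and 14.3 against 217 and 254 RPKM (log2 fold change -2.69, limma adjusted p = 0.0350). Stat6 was called in 10 of 13 alternatives, all but without brain tumor 2, with no filter on low values and with the replicate block, and without lung tumor 1 Tyk2, Stat2 and Stat5a were among those called lower as well.

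Of 18 host inhibitor genes, 2 rose and 0 fell, where 14.3% of all tested mouse genes rose and 8.12% fell (median -0.42). Ptprt, a receptor phosphatase of neurons, had 17.0, 29.2 and 27.9 against 0.588 and 0.619 RPKM (log2 fold change 3.96, limma adjusted p = 0.00288). In lung tumors 1 and 2, Ptprt had 1 and 24 reads. Socs7 had 31.0, 39.0 and 48.5 against 2.24 and 12.2 RPKM (log2 fold change 2.60, limma adjusted p = 0.0369), and both were opposite in sign to Socs3. The Socs7 values of lung tumors 1 and 2 rested on 2 and 249 reads. Ptpn1 had 147, 129 and 95.9 against 253 and 235 RPKM, Ptpn6, a phosphatase of blood cells, 102, 76.1 and 7.81 against 130.2 and 213 RPKM, and Ptprc, the leukocyte marker CD45, 14.1, 10.6 and 4.48 against 24.9 and 76.2 RPKM. These 3 did not pass (limma adjusted p = 0.0714, 0.223 and 0.0640). Ptprt was called in all 13 alternatives and Socs7 in 7, but not with a pseudocount of 0.1, with no filter, with the replicate block or on leaving out any 1 brain tumor. Without lung tumor 1, Socs1, Socs2, Cish, Ptprc and Sh2b3 were called lower and Socs7 and Ptprt higher, where 14% of all tested genes were called lower and 17% higher. Without lung tumor 2, Pias4, Ptpn1 and Ptpn2 were called lower and Socs5, Socs7, Pias1, Ptpn11 and Ptprt higher, where 20% and 35% of all were.

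The make-up of the host tissue moved with the same comparison. Summed over 5 markers each, astrocyte genes were at 9587 to 11956 RPKM in the brain tumors against 109 to 176 RPKM in the lung tumors, and neuron genes at 1291 to 2049 RPKM in the brain tumors against 29.2 to 35.5 RPKM in the lung tumors. Fibroblast genes were at 149 to 653 RPKM in the brain tumors against 6199 to 12338 RPKM in the lung tumors, and leukocyte genes at 32.7 to 92.7 RPKM in the brain tumors against 494 to 979 RPKM in the lung tumors. Alveolar and club cell genes were at 17.4 to 54.1 RPKM in the brain tumors against 948 to 64225 RPKM in the lung tumors, the lower of the last 2 in lung tumor 1. Microglia genes were at 66.4 to 309 RPKM in the brain tumors against 141 to 222 RPKM in the lung tumors. All 5 astrocyte and all 5 neuron genes rose, while 3 of 5 fibroblast genes, 2 of 4 tested leukocyte genes (S100a8 and S100a9) and all 5 alveolar and club cell genes fell. Of the microglia genes Sall1 alone rose, and of the endothelial genes Emcn alone fell. Rbfox3, a neuron marker, Sall1 and Cd79a, a B cell marker, were at 0 in lung tumor 1, and Cd79a was also at 0 in brain tumor 1. The part of these cell types in the host differences of Socs3, the STAT3 response genes and the receptors was not tested.

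**Figure D5:**
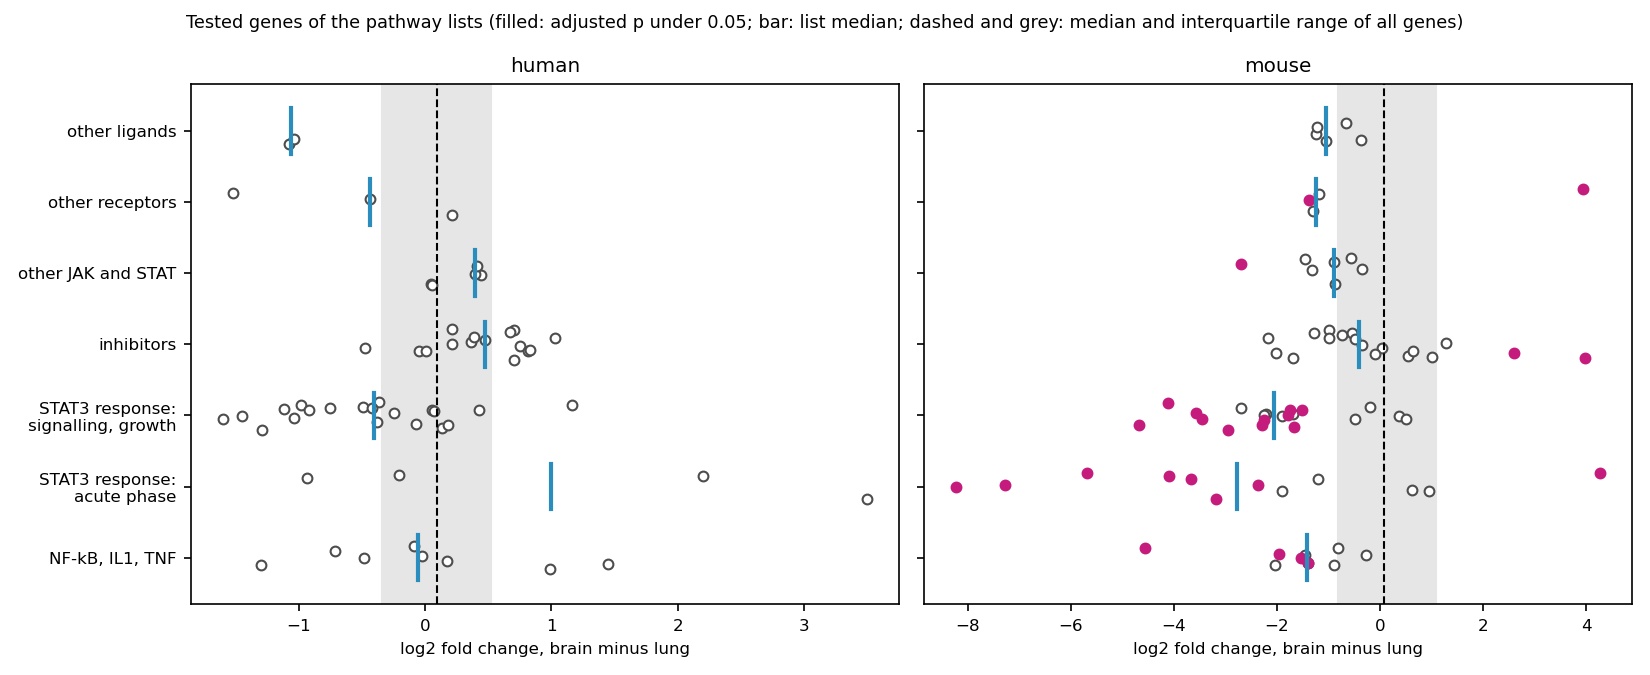
Log2 fold change, brain minus lung (x axis; the 2 panels differ in scale), of the tested genes of each list (y axis) in human and mouse; filled points passed limma at an adjusted p under 0.05, short bars are list medians, and the dashed line and grey band are the median and the interquartile range of all tested genes. The host medians of the 2 STAT3 response lists lie at -2.05 and -2.78, and no human point is filled.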

How the data were processed

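Tumors of a human line in mice gave 5 RNA sequencing libraries, grouped by their titles. The authors deposited RPKM values in 1 human and 1 mouse table, and the submitters' processing notes name the builds hg38 and mm10. Not given in the sources used here are the aligner, the counter and how reads were told apart by species. Columns were matched by the library numbers in the labels, and 0 were left over. Whole reads could be recovered for 100% of genes above 0 in each species (within 0.001 reads). The gene lengths this implies were multiples of 0.5 bases for 99.0% of human and 99.1% of mouse genes above 0 in all 5 libraries. The reads summed to 98.0 to 98.7% of the RPKM denominators, which came out as whole numbers and are given as depths. These lengths, with medians of 873 (human) and 1354 bases (mouse), fell well short of the full transcript for genes such as STAT3, so levels of different genes are not compared. 148 human and 36 mouse symbols that occur more than once were kept apart by identifier.

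Genes that reached 1 RPKM in 2 libraries were fitted on log2(RPKM + 1), which understates fold changes of low genes, with limma 3.58.1 in R 4.3.3 (trended eBayes, two-sided, Benjamini-Hochberg adjustment per species). With 3 against 2 libraries a permutation test cannot go below 0.2 and was not used. The fit was tested on simulated data. Alternatives were a pseudocount of 0.1, no filter, a filter at 5 RPKM, median-ratio scaling, eBayes without a trend, a replicate block, voom on recovered reads, removal of a gene length trend and leaving out each library. Human coordinates are RefSeq's for GRCh38.p14, matched by symbol. Named list genes were the called ones (up to 4), the 2 with the highest mean and those with the largest fold change in each direction. Named after their values were seen were OSM, IL1B, FOS, JUNB, CEBPB, PIAS1, PIAS2, STAT2 and NNMT in the cancer cells, and Clcf1, Nfkb1, Tyk2, Stat2, Stat5a, Socs1, Socs2, Cish, Sh2b3, Pias4, Ptpn2, Socs5, Pias1, Ptpn11 and the marker genes named singly in the host. Values of 2 list genes are not reported here. Members and lists were chosen with earlier results of these data known.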

Additional observations from a re-analysis of the deposited data

Results flagged for a closer look

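For 2 named genes, all 3 brain tumors lay above both lung tumors in the cancer cells and below both in the host, and the difference between the species was not tested. HP had a human log2 fold change of 3.50 and a mouse one of -7.27. NFKB1 had 0.99 in human and -1.40 in mouse. Of these values mouse Hp alone passed limma (adjusted p = 0.00177). Human NFKB1 was barely apart, at 120.1 RPKM in brain tumor 2 (544 reads) against 119.4 in lung tumor 2 (316 reads). Over all tested genes, 17.4% of human ones had every brain tumor above both lung tumors and 26.2% of mouse ones below both.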

How the results depend on the processing

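Over 13 alternatives per species, 223 of 240 values of the 19 tested genes kept their sign and their side of the threshold. Of 169 list medians, 149 moved by less than 1 standard error of the group difference in the libraries' list medians. Part of this was fixed in advance. A change of filter or of the eBayes trend leaves a gene's log2 fold change as it was, and at most 1 human gene was called in most fits. Human calls over all genes numbered 1, with 0 by voom on recovered reads, 114 with the replicate block and 0 to 2183 on leaving out 1 library. Mouse calls numbered 3457, with 2295 without a filter on low values, 1484 with the replicate block and 1245 to 8084 on leaving out 1 library. Of the mouse calls 63.8% were higher in the brain tumors, and 77.1% with the replicate block. On leaving out 1 library, 6 log2 fold changes turned sign: OSMR ranged from -0.48 to 1.03, JAK1 from -0.77 to 1.13, Lif from -0.56 to 0.48, Il6st from -1.08 to 0.24, Lifr from -0.63 to 1.33 and Stat3 from -0.69 to 0.0674. The OSMR, JAK1, Lif and Lifr signs turned without lung tumor 1, and the Il6st and Stat3 signs without lung tumor 2. The sign turned for Lif with the replicate block (-0.10), with voom (-0.32) and with the length trend removed (-0.26), and for Lifr with the length trend removed (-0.21). The cause was not tested. The numbers do not pair the libraries by the labels, and deviations of same-numbered libraries correlated at -0.0821 and 0.0591 in human and 0.0347 and 0.0502 in mouse genes. With the block, host Socs3 had a log2 fold change of -2.09 (limma adjusted p = 0.0543), from 2 pairs and nothing from brain tumor 3. The block left 5 of 20 host STAT3 response genes of signalling and growth and 0 of 10 NF-kB genes called lower. Depth limits the host ligands and lung tumor 1 in the mouse table most.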
